A study of Rattus norvegicus with 6 samples.

Results

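The cyclins A2, B1, B2, E1, E2 and F, their kinases CDK1 and CDK2, and the small CDK subunit CKS2 were followed in replicating and quiescent rat β-cells. The genes were chosen by name: all probes that the array files assign to *Ccna2*, *Ccnb1*, *Ccnb2*, *Ccne1*, *Ccne2*, *Ccnf*, *Cdk1*, *Cdk2* or *Cks2* were taken, which gave 12 probes for all 9 genes, of 45598 probes and 20506 named genes in all. Islets of young adult male Wistar rats had been cultured overnight from the day of isolation with EdU, a thymidine analogue that is built into newly made DNA. Dispersed cells were loaded with the zinc dye Newport Green, fixed with paraformaldehyde and sorted as large, granular, dye-bright cells into EdU-positive (replicating) and EdU-negative (quiescent) β-cells. Each of 3 islet preparations pooled the islets of 4 rats and gave 1 array of each kind, so that there were 3 replicating and 3 quiescent arrays. All 6 samples were therefore cultured, labelled and fixed alike, amplified by the same method, and divided by the EdU gate. The study collected far fewer cells and less RNA in the replicating than in the quiescent fraction. Whether the input to amplification was matched is not stated, so cell number and RNA yield cannot be told apart from the gate. EdU marks DNA synthesis at some point of the overnight culture, so an EdU-positive cell may have been in any later stage of the cycle when it was fixed.

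A cyclin-dependent kinase is inactive until a cyclin binds it. Cyclin E joins CDK2 at the start of DNA synthesis, cyclin A joins CDK2 during S phase and CDK1 afterwards, and cyclin B with CDK1 drives the entry into mitosis. CKS2 binds CDK1 and CDK2 and helps them to act on substrates that already carry phosphate, while cyclin F binds no kinase and serves as the substrate receptor of an SCF ubiquitin ligase. Cyclins A, B, E and F are made and destroyed once in each cycle of a dividing cell, whereas the CDK2 protein is known to be present throughout it. Adult β-cells divide rarely, and their entry into the cycle is best known for its need of the D-type cyclins with CDK4.

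Between 80.8% and 87.3% of probes were well above background in replicating cells, and between 85.7% and 98.4% in quiescent cells. Quiescent array 2 stood apart, with 1583 spots marked as outliers against 252 to 299 on the other arrays, so results are also given without preparation 2 where that matters. The middle 90% of all genes had log2 ratios of replicating over quiescent between -1.55 and 1.41 in preparation 1, between -2.83 and 2.86 in preparation 2, and between -0.80 and 0.81 in preparation 3. Checked against the labels, the proliferation genes *Mki67*, *Pcna* and *Top2a* were higher in the EdU-positive cells, with log2 ratios of 2.33, 1.68 and 3.76. In preparation 2 their ratios were 0.63, 2.43 and 3.77. There *Mki67* had a log2 value of 12.23 on the quiescent array, against 12.86 on the replicating array. All 12 β-cell markers on the array were well above background on every array, *Ins1* and *Ins2* included. So were 5 of 5 endothelial, 2 of 2 delta cell and 9 of 10 fibroblast and stellate cell markers. Being above background thus does not tell the cell types apart. Of the 12 β-cell markers, *Mafa* was lower, at -1.01, and 0 were higher. Marker genes of other cell types moved as well. The 10 fibroblast and stellate cell markers all had a ratio above 0, 4 of them were higher at the threshold used below (*Col1a2*, *Col3a1*, *Col6a3* and *Vim*), and their summed linear level was 13654 to 39715 on the replicating and 4901 to 6126 on the quiescent arrays. Of 6 alpha cell markers only *Gcg* was higher, at 2.39, with a summed level of 20353 to 88234 against 5691 to 15982, and 2 of 5 leukocyte markers (*Cd14* and *Cd68*) were higher, with 3745 to 4845 against 2201 to 4508. The other endocrine and exocrine lists gave *Sst* of 2 delta cell markers, *Ppy* as the only PP cell marker and *Prss1* of 6 acinar markers as higher, and 0 of 5 duct and 0 of 5 endothelial markers. Of the defining markers, *Irx1* of alpha cells and *Pnlip* of acinar cells were not well above background on any replicating array, and 0 were so on all arrays. The part of these cells in the results for the cyclins was not tested, and in sorted pools fewer cells of a type and less RNA per cell cannot be told apart.

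Of these 9 genes, 7 were higher in replicating cells: *Cdk1*, *Cks2*, *Ccnb1*, *Ccna2*, *Ccnb2*, *Ccne1* and *Ccne2*, from 20.9-fold for *Cdk1* to 2.39-fold for *Ccne2*. *Ccnf* and *Cdk2* did not pass. A gene was called where limma gave an unadjusted p no higher than 0.05 and a log2 ratio of at least 1 or at most -1 with the preparation as a block, the threshold of the study. By that rule 5.28% of all genes were higher and 3.13% lower. The same 7 genes had a ratio above 0 in each of the 3 preparations, as did 16.6% of all genes with values on every array, and in each of them every replicating array lay above every quiescent array, as in 10.0% of those genes. After Benjamini-Hochberg adjustment over all probes, 0 of the 9 genes passed 0.05, as did 0 of all 45598 probes (0%), of which 4379 had an unadjusted p under 0.05. The median log2 ratio of the 9 genes was 2.44, with 2.71, 1.70 and 2.91 in preparations 1, 2 and 3, beside a median of -0.04 over all genes.

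**Figure D1:**
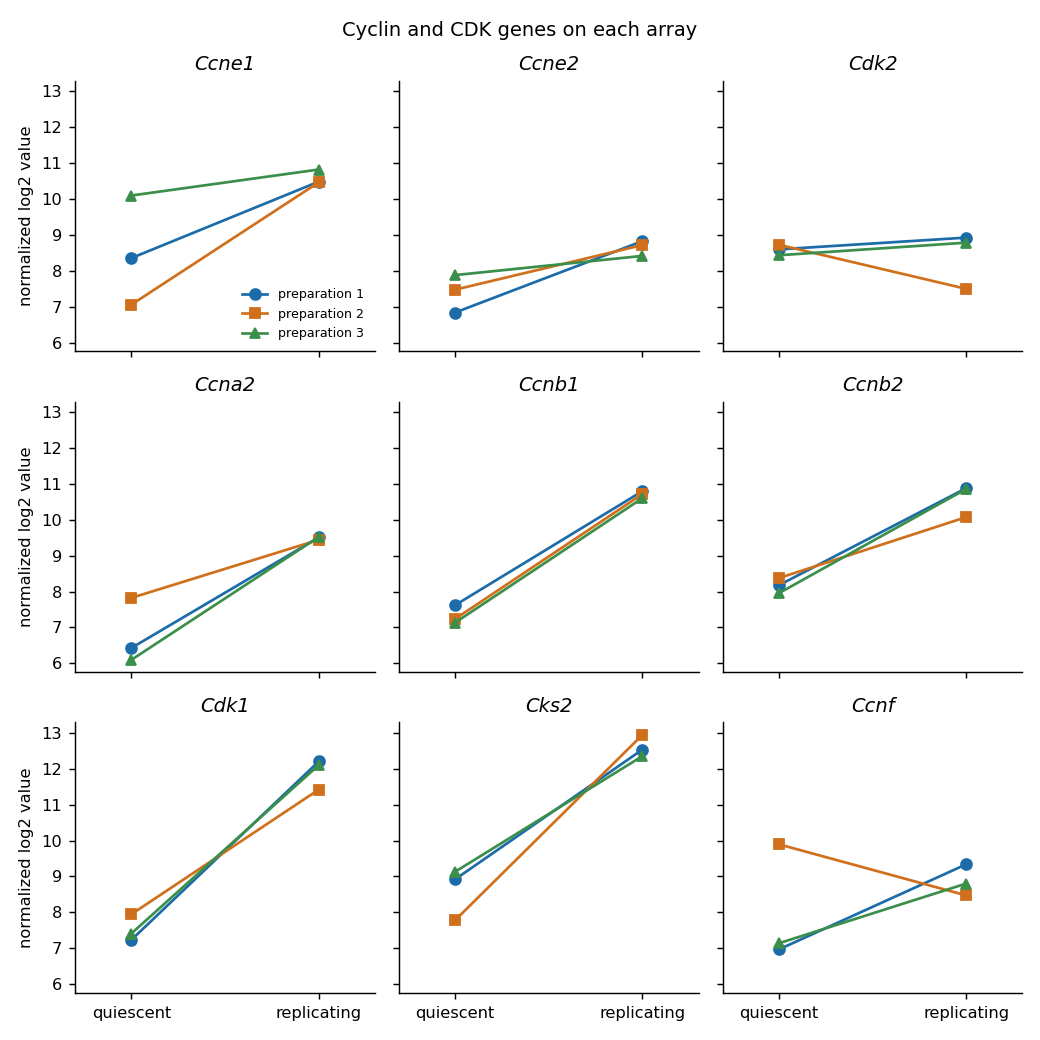
Normalized log2 value (vertical axis) of each of the 9 genes on the quiescent and replicating arrays (horizontal axis), each gene by its brightest probe; a line joins the paired arrays of 1 islet preparation, marked by colour and symbol. All 3 lines rise for 7 genes, and for *Ccnf* and *Cdk2* the line of preparation 2 falls while those of preparations 1 and 3 rise.

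The mitotic kinase and its partners came first. *Cdk1*, whose product phosphorylates the proteins of mitotic entry, had normalized log2 values of 12.20, 11.42 and 12.10 in the replicating cells of preparations 1, 2 and 3. In their quiescent cells it had 7.23, 7.95 and 7.41. All replicating arrays were thus far above all quiescent arrays, and the groups stayed over 3 log2 units apart. Its log2 ratio was 4.38 (SE 0.42; 95% confidence interval 3.32 to 5.44), with 4.97, 3.48 and 4.70 in the 3 preparations and an adjusted p of 0.120 from limma. By size of the ratio it had rank 20 of 20506 genes. *Cdk1* stands in the study's own list of top genes, which was chosen on these arrays, so its size here is not independent of that choice. Its probe was printed in 10 spots on each array, and the log2 values of these spots had an SD of 0.05 to 0.44 within an array.

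*Cks2* had 12.54, 12.95 and 12.36 on the replicating arrays and 8.92, 7.78 and 9.13 on the quiescent arrays. Its largest ratio, 5.17, lay in preparation 2, where the quiescent array was lowest, against 3.62 and 3.23 in preparations 1 and 3. The log2 ratio over the 3 preparations was 4.01 (SE 0.48; 95% confidence interval 2.79 to 5.22), or 16.1-fold, with an adjusted p of 0.173 from limma. A dimmer probe of *Cks2* gave 3.49, with 4.16, 3.83 and 2.49 in the preparations, so that the order of the preparations was not shared by the probes.

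*Ccnb1*, the main cyclin partner of CDK1 at mitotic entry, was the steadiest of the 9. It had 10.80, 10.72 and 10.61 on the replicating arrays and 7.62, 7.24 and 7.13 on the quiescent arrays. Both groups were tight, and the 3 preparations gave ratios of 3.18, 3.48 and 3.47, whose SD of 0.17 was the lowest among the 9 genes. The log2 ratio was 3.38 (SE 0.31; 95% confidence interval 2.59 to 4.16), or 10.4-fold, with an adjusted p of 0.118 from limma.

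*Ccnb2*, the B-type cyclin found at the Golgi, had 10.88, 10.07 and 10.86 on the replicating arrays and 8.18, 8.37 and 7.95 on the quiescent arrays. The replicating array of preparation 2 was the low one of its group, and the ratio there was 1.70, against 2.71 and 2.91 in preparations 1 and 3. Its log2 ratio was 2.44 (SE 0.38; 95% confidence interval 1.47 to 3.41), or 5.42-fold, with an adjusted p of 0.293 from limma. A dimmer probe gave 2.34, with 2.21, 2.64 and 2.17 in the preparations, and there preparation 2 had the largest ratio. The confidence intervals of *Ccnb1* and *Ccnb2* overlapped, and the difference between both genes was not tested.

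The probes that gave these values are shown so that those of the related B-type cyclins can be compared base by base. Each is 60 bases long, is written from 5′ to 3′ as in the array files, and has at least 1 reading frame without a stop codon. The files place the *Cdk1* probe on the plus strand at chr20:20043755-20043814 of the rat build rn4 and the *Cks2* probe on the minus strand at chr17:19423789-19424555. The probes of *Ccnb1* (chr2:31574809-31575048) and *Ccnb2* (chr8:74892410-74893442) also lie on the minus strand. For *Cks2*, *Ccnb1* and *Ccnb2* the stretch of genome, at 767, 240 and 1033 bases, is longer than the probe, so these probes span an exon junction, and no other annotation of exon or UTR was used here. Capitals mark the bases of the *Ccnb1* and *Ccnb2* probes that are the same when both are laid side by side without gaps at the shift with most matches, which were 28 of 44 overlapping bases (63.6%). The *Cdk1* and *Cks2* probes have no such marks.
Cdk1: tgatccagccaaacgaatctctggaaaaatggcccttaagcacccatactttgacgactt
Cks2: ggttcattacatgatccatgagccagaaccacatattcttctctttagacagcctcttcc
Ccnb1: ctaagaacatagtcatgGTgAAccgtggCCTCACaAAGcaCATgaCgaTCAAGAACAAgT
Ccnb2: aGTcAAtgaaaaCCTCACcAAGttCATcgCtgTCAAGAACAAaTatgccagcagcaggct

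*Ccna2*, whose product serves CDK2 in S phase and CDK1 in G2, had 9.51, 9.44 and 9.52 on the replicating arrays. On the quiescent arrays it had 6.43, 7.82 and 6.10, of which the last was not well above background. The replicating arrays differed by less than 0.1, and almost all of the spread came from the quiescent arrays, of which array 2 was the highest. The log2 ratio was 2.71 (SE 0.46; 95% confidence interval 1.54 to 3.88), or 6.54-fold, with 3.08, 1.62 and 3.43 in the preparations and an adjusted p of 0.331 from limma. Its size depended on the processing, from 2.35 without preparation 3 to 4.10 with the processed signal. With a normexp offset of 16 it was 3.33, and with an offset of 0 it was 3.91. The values of 3.91 and 4.10 lie above the interval. With the processed signal *Ccna2* was also above *Ccnb1*, which had 3.70 there. A second probe of *Ccna2*, well above background on all arrays, gave 2.52, with 3.04, 1.97 and 2.56. Preparation 2 had the lowest ratio with either probe. The first of these probes, shown since no other probe of the 9 genes fell short of the background limit on any array, lies at chr2:123065588-123065829 of rn4 on the minus strand, spans 242 bases of genome and therefore also crosses an exon junction.
Ccna2: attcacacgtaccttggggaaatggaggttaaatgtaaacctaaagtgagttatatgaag

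*Ccne1*, the E-type cyclin of the start of S phase, had 10.49, 10.47 and 10.82 on the replicating arrays and 8.36, 7.06 and 10.10 on the quiescent arrays. The replicating arrays lay close together while the quiescent arrays were spread over about 3 log2 units, and quiescent array 3 was nearly as high as the replicating arrays. The ratios were 2.13, 3.41 and 0.73 in preparations 1, 2 and 3. Over all preparations the log2 ratio was 2.09 (SE 0.57; 95% confidence interval 0.64 to 3.54), or 4.25-fold, with an unadjusted p of 0.0137 and an adjusted p of 0.475 from limma. Without preparation 1 the ratio was 2.07 and the unadjusted p from limma 0.0688. The ratio was 1.43 without preparation 2 and 2.77 without preparation 3, and the call held in both cases.

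*Ccne2*, the other E-type cyclin, had 8.83, 8.72 and 8.42 on the replicating arrays and 6.84, 7.48 and 7.88 on the quiescent arrays. The groups did not overlap, but in preparation 3 they came within 0.54, against 1.99 and 1.24 in preparations 1 and 2. The log2 ratio was 1.26 (SE 0.40; 95% confidence interval 0.24 to 2.27), or 2.39-fold, with an unadjusted p of 0.0244 and an adjusted p of 0.475 from limma. The call was lost with the processed signal, with scaling to the 75th percentile and without preparation 1, where limma gave an unadjusted p of 0.204, 0.146 and 0.188.

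*Cdk2*, the kinase that the E- and A-type cyclins activate, was not called, while *Ccne1*, *Ccne2* and *Ccna2* were. The difference between *Cdk2* and these cyclins was not tested. *Cdk2* had 8.93, 7.50 and 8.79 on the replicating arrays and 8.60, 8.73 and 8.43 on the quiescent arrays. The groups overlapped, with replicating array 2 the lowest of all 6. The log2 ratio was -0.18 (SE 0.44; 95% confidence interval -1.31 to 0.95; unadjusted p = 0.696 and adjusted p = 0.858 in limma), with 0.33, -1.23 and 0.35 in the preparations, and its sign turned without preparation 2, to 0.34. The interval does not show that *Cdk2* was the same in both groups, since it reaches a decrease of more than 2-fold. The fitted increases of *Cdk1*, *Cks2*, *Ccnb1*, *Ccna2*, *Ccnb2*, *Ccne1* and *Ccne2* lie outside it. The intervals of *Ccne1* and *Ccne2*, which begin at 0.64 and 0.24, nevertheless overlap that of *Cdk2*.

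*Ccnf* varied most of the 9. It had 9.34, 8.47 and 8.80 on the replicating arrays and 6.96, 9.90 and 7.14 on the quiescent arrays. Quiescent array 2 was the highest of all 6, and the groups overlapped only because of it. The log2 ratio was 0.87 (SE 0.79; 95% confidence interval -1.13 to 2.88; unadjusted p = 0.317 and adjusted p = 0.603 in limma), with 2.37, -1.43 and 1.67 in the preparations. Without preparation 2 it was 2.02, with an unadjusted p of 0.0016 and an adjusted p of 0.235 from limma.

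**Figure D2:**
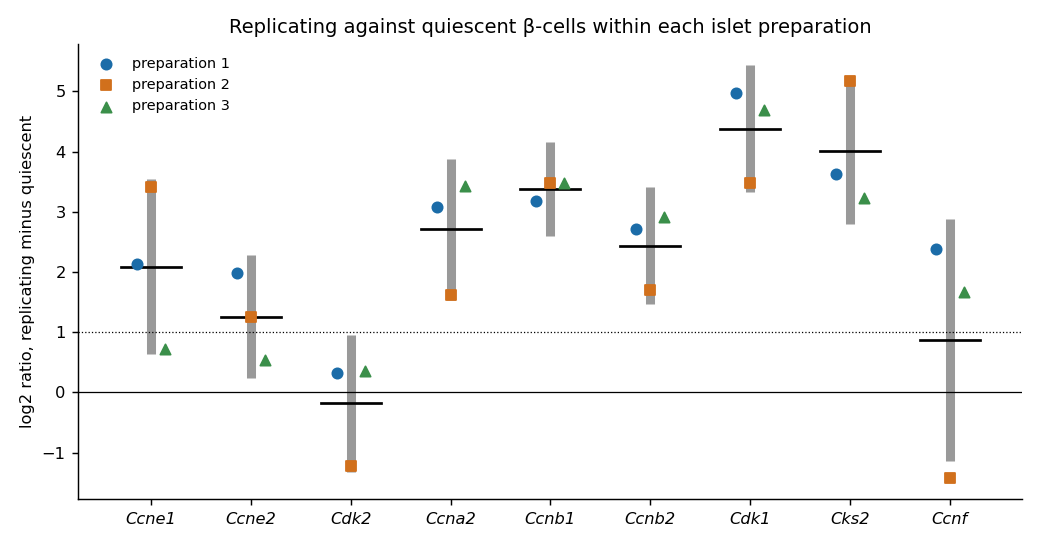
Log2 ratio of replicating over quiescent β-cells (vertical axis) for each gene (horizontal axis), by preparation (symbols), with the fitted mean (black line) and its 95% confidence interval from limma (grey bar); the dotted line marks a log2 ratio of 1. The intervals of *Cdk1*, *Cks2*, *Ccnb1*, *Ccna2* and *Ccnb2* lie wholly above 1, those of *Ccne1* and *Ccne2* above 0, and those of *Cdk2* and *Ccnf* include 0.

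Arranged by role, the 4 genes of the CDK1 complex with B-type cyclins (*Ccnb1*, *Ccnb2*, *Cdk1* and *Cks2*) had a median log2 ratio of 3.40, 3.48 and 3.35 in preparations 1, 2 and 3, and their 12 single ratios lay between 1.70 and 5.17. The 3 genes of the CDK2 complex with E-type cyclins had medians of 1.99, 1.24 and 0.54, and their single ratios lay between -1.23 and 3.41. *Cks2* (4.01), whose product also binds CDK2, was counted in the first set only. *Ccna2* (2.71), whose product serves both kinases, was in neither. The sets were chosen with earlier results of these data known. Both were compared on the same arrays, the difference between them was not tested, and the single ratios overlapped. By likeness of the 3 ratios, *Ccna2* was nearest to *Ccnb2* among the 9 genes (Euclidean distance 0.65), *Ccnb1* to *Cks2* (1.76) and *Ccne1* to *Ccne2* (2.18).

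The preparations differed in how far these genes stood out. In preparation 3, where all genes together varied least, *Cdk1*, *Ccnb1* and *Ccna2* had ranks 8, 41 and 42 by ratio, and in preparation 1 ranks 9, 82 and 86. In preparation 2, where all genes varied most, *Cks2* had rank 23, against 52 and 51 in preparations 1 and 3, while *Cdk1* and *Ccnb1* had ranks 427 and 419 and *Ccna2* rank 3218. *Ccne1* had rank 276, 473 and 1210 in preparations 1, 2 and 3. A ratio of a given size thus stood for a lower rank in preparation 2.

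The scanner signals before normalization show the same. The median signal over all spots was 196 on replicating array 2 and 557 on quiescent array 2, and 302 and 382 on the arrays of preparation 1. For *Ccna2* the mean signal was 686 on the replicating and 78.0 on the quiescent array in preparation 1, and 890 against 38.1 in preparation 3. In preparation 2 it was 395 against 417, so that the ratio above 0 of this probe there came with the normalization between arrays. *Ccne2* likewise had 227 against 339 in preparation 2. In that preparation the second *Ccna2* probe, with 351 against 309, was higher in the replicating cells before any normalization. So were *Cdk1*, with 1722 against 448, and *Cks2*, with 5223 against 404. The local background around the spots of the 9 genes was between 23.5 and 31 on all arrays.

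**Figure D3:**
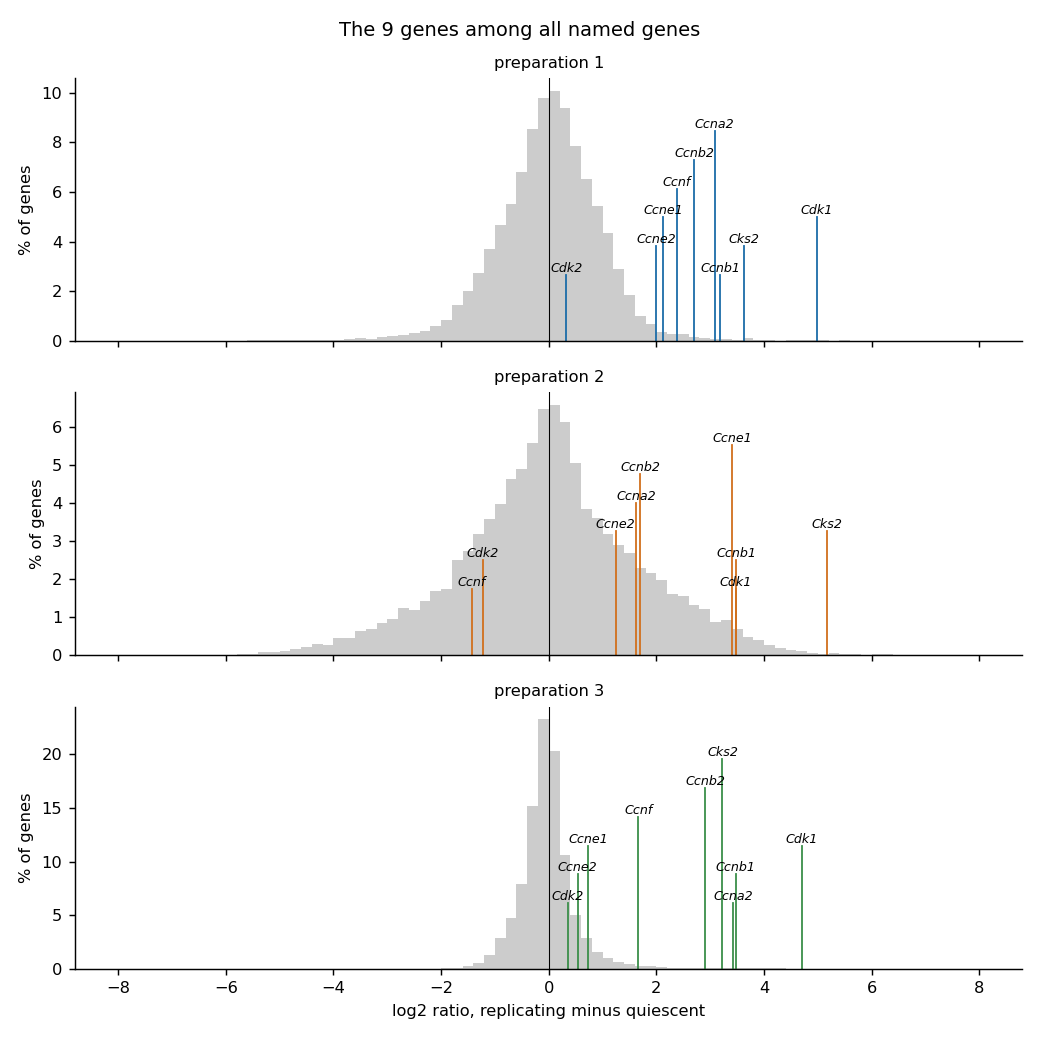
Share of all named genes (vertical axis, in %) by log2 ratio of replicating over quiescent β-cells (horizontal axis) in each islet preparation, with the 9 genes as labelled lines whose height carries no value. The distribution is widest in preparation 2 and narrowest in preparation 3, and *Cdk1*, *Ccnb1* and *Cks2* lie in the upper tail of all 3.

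The stretches of DNA before the start sites are shown as a description, and their part in the ratios was not tested. RefSeq promoter sequences of the rat assembly GRCr8 were given for 7 of the 9 genes; *Ccna2* and *Ccne2* were not among them. In the 250 bases before the start site, matches were sought on both strands to the cell-cycle genes homology region CHR (TTTGAA or TTCGAA), to the CCAAT box (CCAAT) and to E2F sites (TTTCCCGC, TTTGGCGC, TTTCGCGC or TTTGCCGC), and 0 of the matches in the 7 genes overlapped another. Among all 33469 promoters of the table, 17.4% held a CHR match, 34.0% a CCAAT match and 1.73% an E2F match.

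CHR matches were found in 4 of the 7 genes: 2 in each of *Cdk1*, *Ccnb2* and *Ccnf*, and 1 in *Cks2*. The CCAAT box was found in 6 of the 7, with 4 matches in *Cks2*, 3 in each of *Cdk1* and *Ccnb2*, 2 in each of *Ccnb1* and *Ccnf*, and 1 in *Cdk2*. An E2F match was found in *Cdk1* alone. *Ccne1* held none of these letters in this window and *Ccnb1* no CHR match, which says nothing about the factors that bind there. *Ccnf*, which was not called, carried as many CHR matches as *Cdk1*. The matches are a description of the sequence and no binding was measured.

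The 150 bases before the start site are given for *Cdk1* (chr20:19265143-19265292, plus strand), *Ccnb1* (chr2:33655226-33655375), *Ccnb2* (chr8:79981659-79981808), *Cks2* (chr17:13727520-13727669) and *Cdk2* (chr7:1721879-1722028), the last 4 on the minus strand of GRCr8. They run from 5′ to 3′ on the strand of the gene, and capitals mark the matches, where a match on the other strand reads ATTGG or TTCAAA.
Cdk1: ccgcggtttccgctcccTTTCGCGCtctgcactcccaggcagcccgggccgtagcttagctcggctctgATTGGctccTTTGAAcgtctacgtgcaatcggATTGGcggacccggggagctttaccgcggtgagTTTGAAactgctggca
Ccnb1: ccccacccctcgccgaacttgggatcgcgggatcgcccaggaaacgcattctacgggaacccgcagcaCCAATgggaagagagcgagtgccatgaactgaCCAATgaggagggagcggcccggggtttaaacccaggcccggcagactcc
Ccnb2: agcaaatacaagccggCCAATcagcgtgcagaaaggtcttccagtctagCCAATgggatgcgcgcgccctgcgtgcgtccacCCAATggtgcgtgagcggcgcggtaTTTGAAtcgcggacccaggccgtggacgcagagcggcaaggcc
Cks2: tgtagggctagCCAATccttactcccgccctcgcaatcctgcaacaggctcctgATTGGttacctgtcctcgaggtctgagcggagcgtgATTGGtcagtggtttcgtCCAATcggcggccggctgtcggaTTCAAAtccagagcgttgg
Cdk2: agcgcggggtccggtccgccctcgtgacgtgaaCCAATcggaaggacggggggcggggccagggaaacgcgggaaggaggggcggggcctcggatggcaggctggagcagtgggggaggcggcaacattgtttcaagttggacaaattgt
The paired CCAAT boxes of *Ccnb1*, the row of boxes ahead of a CHR match in *Ccnb2* and the single box of *Cdk2* can be read there. Not printed are *Ccne1*, which was called and held no match, and *Ccnf*, which was not called and held 2 CHR and 2 CCAAT matches.

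The regulators of CDK1 and CDK2 were taken from a list of 30 genes, of which 29 were named on the array and *Cdk7* was not. In the replicating β-cells 12 were higher and 0 lower, beside the 5.28% and 3.13% of all genes, with a median log2 ratio of 0.91. The 3 listed genes for the activation of CDK1 through Plk1 were all higher: *Plk1*, the polo-like kinase, at 5.12 (SE 0.48), *Aurka*, which activates Plk1, at 3.50 (SE 0.41), and *Bora*, the cofactor of Aurora A in that step, at 3.30 (SE 0.46). Every one of their ratios in the single preparations was above 2. A dimmer second probe of *Aurka*, however, gave -0.27.

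PP2A-B55 removes the phosphates that CDK1 adds, and Greatwall restrains it through its targets Arpp19 and Ensa. *Mastl*, the Greatwall kinase, was higher at 3.78 (SE 0.30), with 3.72, 3.71 and 3.91 in the preparations and an adjusted p of 0.0977 from limma, which no probe was below. A dimmer probe gave 1.96. The Greatwall targets *Arpp19* and *Ensa*, at -0.35 and 0.41, and the phosphatase subunit *Ppp2r2d*, at 0.79, did not pass. Dimmer probes of *Arpp19* and *Ensa* gave 0.80 and -0.09, of the opposite sign. *Mastl*, *Plk1* and *Cdkn3* are also in the study's own top list.

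Of the inhibitory kinases both were higher, and of the 3 inhibitor proteins 1. *Pkmyt1* and *Wee1*, which put the inhibitory phosphate on CDK1, had 2.95 (SE 0.54) and 1.38 (SE 0.42). *Wee1* was less firm, since its unadjusted p reached 0.0987 under the alternative settings and a dimmer probe gave 1.02. *Cdkn1a*, the inhibitor p21, had 1.91 (SE 0.49), and its second probe 3.27, while *Cdkn1b* (p27) at 1.69 and *Cdkn1c* (p57) at 0.02 did not pass. *Cdkn1b* had 1.08, 3.84 and 0.14 in the preparations, a spread larger than its mean. *Cdkn3*, a phosphatase that removes the activating phosphate from CDKs, was higher at 4.22 (SE 0.36), with 3.74, 4.08 and 4.84.

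The activating phosphatases did not pass the test: *Cdc25a* had 0.22, *Cdc25b* 0.52 and *Cdc25c* 0.85. *Cdc25c* had 2.40 in preparation 3 and 0.01 and 0.14 in preparations 1 and 2, and a dimmer probe gave -0.65. Of the other activating subunits, *Cks1b*, the relative of *Cks2*, was higher at 2.25 (SE 0.30), with 2.21, 2.15 and 2.38 in the preparations and a dimmer probe at 3.67 (3.45, 5.11 and 2.44), while *Ccnh* at 1.10 and *Mnat1* at 0.62 of the CDK-activating kinase did not pass. *Mnat1* lacked a value on 1 array of preparation 2, so its ratio rests on preparations 1 and 3, with 1.32 and -0.08.

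Among the 10 genes for the turnover of cyclins, 3 were higher. These were *Ube2c* at 2.72 (SE 0.32) and *Ube2s* at 2.77 (SE 0.46), the ubiquitin-conjugating enzymes of the anaphase-promoting complex, and *Fbxo5*, the inhibitor Emi1 of that complex, at 1.88 (SE 0.35). The dimmer probe of *Ube2c* gave 2.03. That of *Ube2s* gave -0.12, but it was well above background on 0 replicating arrays and 1 quiescent array, so it says little about a change. *Cdc20* and *Fzr1*, the activators of the anaphase-promoting complex, had -0.21 and -0.24. *Cdc20* changed sign between preparations, with -1.02, -0.92 and 1.32. The genes of the SCF ligases that act on cyclin E and its inhibitors, *Skp1*, *Skp2*, *Cul1*, *Rbx1* and *Fbxw7*, had 0.36, 0.63, 0.91, 0.38 and -0.22, and 0 of them passed.

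Of 36 other cyclins and CDKs 34 were named on the array, with a median log2 ratio of 0.29. Of these 34, 1 was higher and 0 lower, beside the 5.28% and 3.13% of all genes. The higher gene was *Cdk19*, a kinase of the Mediator complex, at 2.26 (SE 0.48; adjusted p = 0.475 in limma), with 2.04, 3.38 and 1.37 in the preparations. The D-type cyclins of G1, *Ccnd1*, *Ccnd2* and *Ccnd3*, had -0.12, -0.56 and 0.90, and their kinases *Cdk4* and *Cdk6* had 0.48 and -0.36. None of these 5 passed, and a dimmer *Ccnd1* probe gave 1.04. Only *Ccnd2* among them had the same sign in every preparation, with -0.91, -0.41 and -0.36. The germ-line relatives of the higher cyclins, *Ccna1* and *Ccnb3*, had 0.03 and -0.88 and did not pass. Without preparation 3, whose ratios varied least, 10 of these 34 genes were called, 6 of them higher, beside 10720 of all 45598 probes, 5092 of them higher.

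**Figure D4:**
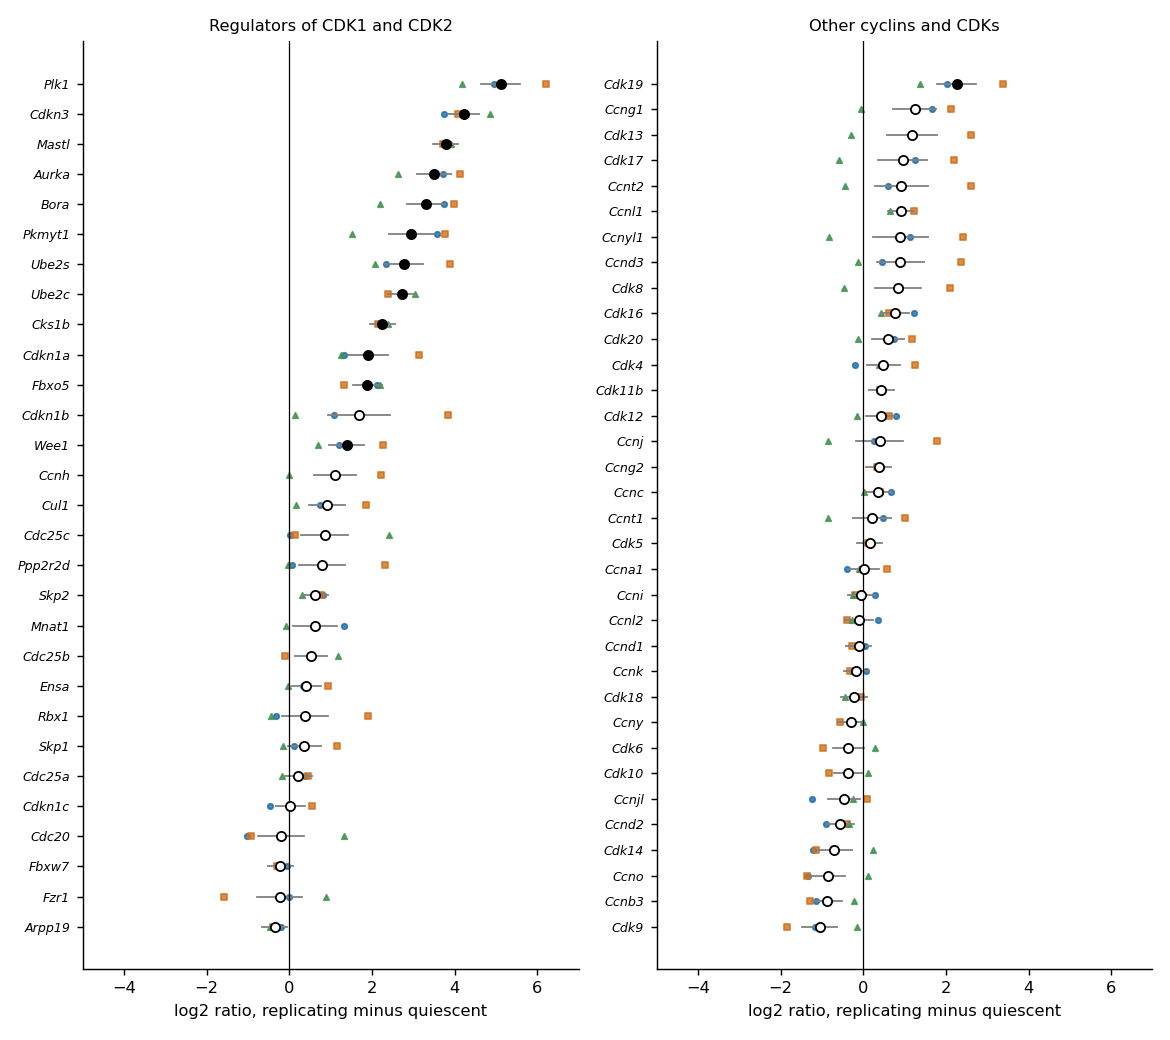
Log2 ratio of replicating over quiescent β-cells (horizontal axis) of the 29 regulators of CDK1 and CDK2 (left) and the 34 other cyclins and CDKs (right) on the array, with the fitted mean and its standard error (circle and grey line; filled where the gene was called) and the ratio in preparation 1 (blue circle), 2 (orange square) and 3 (green triangle). Of the filled circles 12 are on the left and 1 on the right, all above 0.

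For 4 of the genes the genes with the most similar pattern were sought, by Euclidean distance over the log2 ratios of the 3 preparations among the 17582 genes outside the 9 that had values on every array and a current RefSeq symbol as their name in the array files. *Cdk1* was nearest to *Kif18b* (distance 0.66), *Prc1*, *Kif22*, *Tpx2* and *Cdca3*, which include kinesins and a microtubule bundling protein of the mitotic spindle; 4.77, 4.05 and 4.97 were the ratios of *Kif18b* in the preparations. *Ccnb1* was nearest to *Mybl2* (0.49), *Parpbp*, *Dtl*, *Cdca8* and *Mcm5*. *Ccne1* was nearest to *Cse1l* (0.10), *Mbp*, *Hp1bp3*, *Polh* and *Tmpo*. *Cdk2* was nearest to *Pik3cd* (0.07), *Arhgap31*, *Ttr*, *Muc19* and *Cacna1s*.

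**Figure D5:**
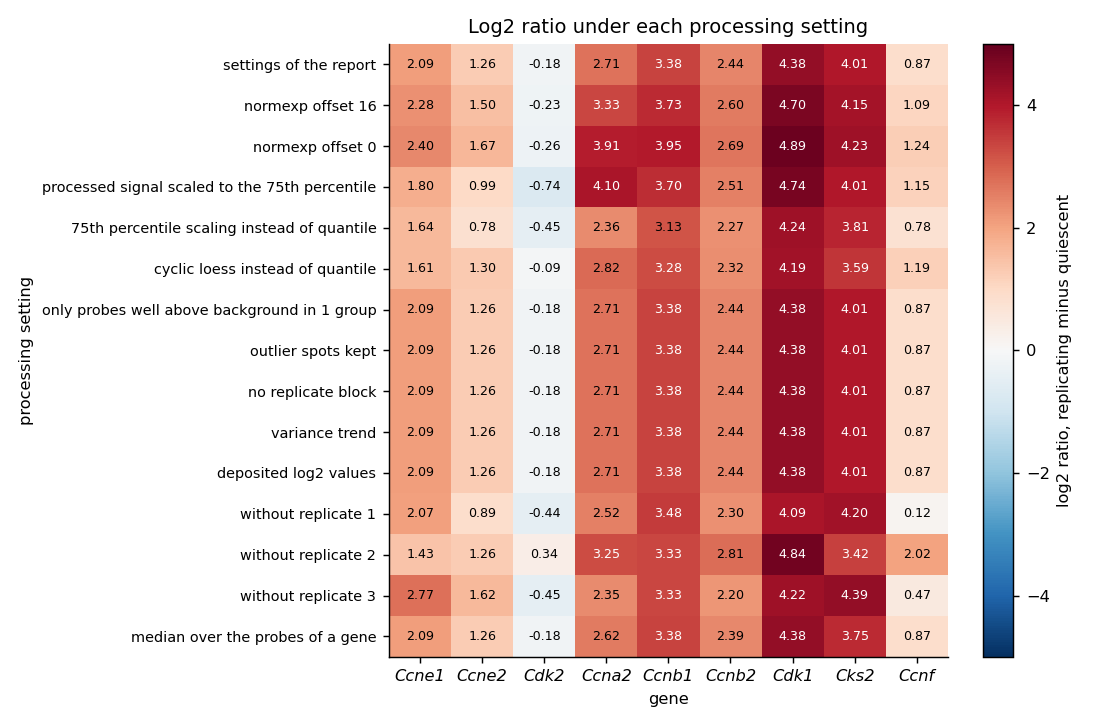
Log2 ratio of replicating over quiescent β-cells (colour and printed value) for each of the 9 genes (columns) under each processing setting (rows). *Cdk1* stays between 4.09 and 4.89 and *Ccnb1* between 3.13 and 3.95, *Cdk2* changes sign without preparation 2, and *Ccnf* ranges from 0.12 to 2.02.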

How the data were processed

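Gene expression was measured on 6 one-colour (Cy3) Agilent rat arrays, 3 of replicating and 3 of quiescent β-cells from 3 islet preparations. The authors deposited, per the file headers, an unnormalized intensity and local background per spot read by Feature Extraction 10.7.3.1, and log2 values that had been normexp corrected and quantile normalized. The deposited intensity values were processed here with normexp (offset 50, not given in the sources used here) and quantile normalization in limma 3.58.1 with R 4.3.3; the result differed from the deposited log2 values by at most 0.000245. Control spots were removed, spots marked as outliers treated as missing, and each probe's spots averaged, which left 45598 probes. A gene was represented by its brightest probe over all arrays. Probes were named by the array name, RefSeq accession or older symbol of RefSeq genes of GRCr8 (24978, 2815 and 424 probes); 17381 stayed unnamed and count only among all probes. The fit was lmFit and eBayes with preparation as the blocking factor, like the paired test of the study. The sample titles give a replicate number, and arrays with the same number were taken as 1 preparation. The deviations of paired arrays correlated at 0.0561, 0.242 and 0.258 across probes. All arrays lay on 1 slide, so no slide block was fitted, and their number limits the precision. The fit was tested on simulated data. The genes named are all 9 with every probe, the genes called in the lists of regulators and other cyclins and CDKs, all measured members of a family described as a group, the 5 nearest genes of *Cdk1*, *Cdk2*, *Ccnb1* and *Ccne1*, and the cell type markers. The genes, lists and rules were chosen with earlier results of these data known. Alternatives were normexp offsets 16 and 0, the processed signal, 75th percentile scaling, cyclic loess, only probes well above background, outlier spots left in, a variance trend, a fit without the block, the median of a gene's probes, the deposited values, and each preparation left out. Experiments other than the arrays were not analysed here.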

Additional observations from a re-analysis of the deposited data

How the results depend on the processing

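The 7 higher genes kept a log2 ratio above 0 under every alternative run, and between 5 and 8 of the 9 genes were called. The median of the 9 lay between 2.27 and 2.81. The count of the 9 genes past the adjusted p, 0 as reported, was 5 with scaling to the 75th percentile, 4 with cyclic loess and 2 with a variance trend. Among all probes 719, 204 and 61 passed under these settings. The count of the 9 genes was 1 with the median of each gene's probes, and between 0 and 4 when 1 preparation was left out. Without preparation 2 the 4 were *Cdk1*, *Cks2*, *Ccnb1* and *Ccna2*, where 84 of all probes passed. Without the replicate block, which drops the pairing of arrays by preparation, 3 of the 9 genes passed (*Cdk1*, *Ccnb1* and *Cks2*). There 99 of all probes passed, and no call of the 9 genes at the unadjusted p changed. With 1 preparation left out *Cdk2* lay between -0.45 and 0.34, the latter without preparation 2. The number of probes called was 3928 (2023 higher), but 7458 (1596 higher) with scaling to the 75th percentile, 3855 (662 higher) with the processed signal, and 578 to 10720 with 1 preparation left out. Both of these scalings moved the median of all genes, to -0.33 and -0.56, against which the ratios there are to be read. The count of other cyclins and CDKs called, 1 as reported, was 2 with an offset of 16, 2 with an offset of 0, 2 with cyclic loess, and 1 to 10 with 1 preparation left out. *Fbxo5* lost its call with the processed signal, where its ratio was 2.44 and limma's unadjusted p 0.0527. The causes were not tested. With 3 arrays a group, of which quiescent array 2 stood apart, and ratios compressed near background, smaller changes could be missed.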
